A study of Rattus norvegicus with 18 samples.

Results

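Lymphatic vessel and lymphangiogenesis genes were followed in rat kidneys over days of unilateral ureteral obstruction. The genes were Vegfc, Flt4, Prox1, Lyve1, Pdpn, Mmrn1, Reln and Ccl21, which are 8 of 30957 genes in the deposited table. They were chosen by gene name, with earlier results of these data known. Each name matched 1 entry, all 8 passed the filter on low counts, and 14511 genes were tested in all. In this model the left ureter of a rat is tied, urine backs up and the kidney on that side is taken after a set time. RNA of the renal parenchyma was sequenced as 18 libraries, 5 after 1 day of ligation, 5 after 3 days, 5 after 7 days and 3 labelled 14 days, and all came from obstructed kidneys. The design also names sham rats, which were not analysed here, and durations of obstruction are compared with each other. The labels give no strain, sex, age or other allele, and do not tie libraries to separate rats, so each p-value reflects only how far libraries of a duration differ, part of which may be technical.

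Lymphatic vessels drain fluid and immune cells from tissue, and in the kidney they run with the arteries of the cortex. VEGF-C, the product of Vegfc, is secreted as a precursor, is trimmed by proteases and then binds VEGFR-3, the receptor that Flt4 encodes, to make lymphatic endothelium grow. The transcription factor PROX1 gives endothelial cells their lymphatic identity. LYVE1, podoplanin (Pdpn), multimerin 1 (Mmrn1), reelin (Reln) and the chemokine CCL21 are products of lymphatic endothelium, and none of them is made there alone. LYVE1 is also found on some macrophages, podoplanin on podocytes and activated fibroblasts, multimerin 1 in platelets, and PROX1 in tubule cells of the mouse renal medulla.

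The deposited table places Vegfc (ENSRNOG00000011416) on the minus strand of chromosome 16 from 40440207 to 40555576 and Flt4 (ENSRNOG00000002511) on the plus strand of chromosome 10 from 35078726 to 35121599. Prox1 (ENSRNOG00000003694) lies on the plus strand of chromosome 13 from 108382399 to 108443294, and Lyve1 (ENSRNOG00000026902) on the minus strand of chromosome 1 from 175663266 to 175676699. Pdpn (ENSRNOG00000014961) and Ccl21 (ENSRNOG00000034290) are on the minus strand of chromosome 5, from 161947137 to 161981441 and from 58197680 to 58198782. Reln (ENSRNOG00000021441) and Mmrn1 (ENSRNOG00000024986) are on the plus strand of chromosome 4, from 9347528 to 9773670 and from 90990088 to 91038748. The table names no build for these positions, and no other gene of the table overlaps any of the 8.

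Promoters are shown for the 4 genes whose day 7 libraries all lay above all day 3 libraries. Each window holds 300 bases, 250 before and 50 after the start of transcription, from RefSeq on the GRCr8 build, which is not taken to be the build of the deposited positions. The windows are chr16:44560838-44561137 on the minus strand for Vegfc, chr10:34414584-34414883 on the plus strand for Flt4, chr1:174410928-174411227 on the minus strand for Lyve1 and chr4:91233166-91233465 on the plus strand for Mmrn1. They are written 5′ to 3′ with CpG dinucleotides in capitals.
Vegfc: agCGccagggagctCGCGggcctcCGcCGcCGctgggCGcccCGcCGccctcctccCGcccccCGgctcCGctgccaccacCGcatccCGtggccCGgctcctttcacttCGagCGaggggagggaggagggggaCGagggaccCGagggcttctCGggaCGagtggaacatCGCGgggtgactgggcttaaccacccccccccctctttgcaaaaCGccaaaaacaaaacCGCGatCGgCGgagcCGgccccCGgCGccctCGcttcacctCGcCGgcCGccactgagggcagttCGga
Flt4: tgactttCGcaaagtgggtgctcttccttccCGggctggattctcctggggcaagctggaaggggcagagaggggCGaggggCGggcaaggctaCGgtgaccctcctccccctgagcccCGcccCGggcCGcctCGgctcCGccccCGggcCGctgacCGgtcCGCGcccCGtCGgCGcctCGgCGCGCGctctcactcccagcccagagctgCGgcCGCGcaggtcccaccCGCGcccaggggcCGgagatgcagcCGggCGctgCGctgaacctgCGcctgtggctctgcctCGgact
Lyve1: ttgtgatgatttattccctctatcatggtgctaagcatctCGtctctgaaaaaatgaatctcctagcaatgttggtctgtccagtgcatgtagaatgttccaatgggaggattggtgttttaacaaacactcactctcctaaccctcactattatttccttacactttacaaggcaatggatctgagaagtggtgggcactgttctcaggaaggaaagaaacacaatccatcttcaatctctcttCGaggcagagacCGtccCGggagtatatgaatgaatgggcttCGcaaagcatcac
Mmrn1: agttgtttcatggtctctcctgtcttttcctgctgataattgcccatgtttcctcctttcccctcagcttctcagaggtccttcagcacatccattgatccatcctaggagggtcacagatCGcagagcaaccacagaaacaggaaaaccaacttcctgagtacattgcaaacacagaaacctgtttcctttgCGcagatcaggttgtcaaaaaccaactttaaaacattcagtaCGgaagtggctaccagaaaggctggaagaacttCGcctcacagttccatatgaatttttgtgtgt
The windows of Vegfc and Flt4 hold 36 and 33 CpG dinucleotides, with 73% and 75% G+C. Those of Lyve1 and Mmrn1 hold 5 and 4, with 43.3% and 45% G+C. Among 33469 rat promoters of this length the medians were 7 dinucleotides and 51.7% G+C, and 5.43% held at least as many as Vegfc, 7.53% as many as Flt4, 62% as many as Lyve1 and 69.3% as many as Mmrn1. The promoter table held 7 of the 8 genes, with 47 dinucleotides in Reln, 9 in Pdpn and 6 in Ccl21, so the richest window was that of a vessel marker. Prox1 was not matched. Selected forms of sites bound by transcription factor families that act in endothelium were searched on both strands as exact letters. Looser or shorter forms were not searched, so a window without a match may still hold such a site. The ETS form CCGGAA (15% of all promoters) and the forkhead form GTAAACA (3.78%) matched none of the 7 windows. Neither did the GATA form AGATAA (11.6%) nor the second SOX form ACAATG (13.2%). The first SOX form ACAAAG (18.8%) matched in Pdpn, from 179 to 174 bases before the start. It also matched in Ccl21, from 169 to 164 bases before the start, and the 5 motifs do not overlap there.

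Some libraries stood apart, and results of the 8 genes that rest on them are given with and without them. Havcr1, which encodes the tubular injury marker KIM-1, was at 0.317 to 7.45 FPKM (counts scaled by gene length and library total) in the 3 libraries labelled day 14, against 188 to 1040 FPKM in the 15 earlier ones. Plin1, which coats the lipid droplet of fat cells, was at 142, 18.7 and 6.41 FPKM in day 14 replicate 3, day 14 replicate 1 and day 1 replicate 5, and at 0 to 0.837 FPKM in the other 15 libraries. In the same 3 libraries the endothelial cadherin Cdh5 was at 40.2, 16.1 and 18.5 FPKM, against 3.06 to 12.6 FPKM elsewhere. Day 14 replicate 2 held 2270 FPKM of the loop of Henle gene Umod, against 16.6 to 381 FPKM in the others. Library totals were 5488540 to 12049915 counts, and mitochondrial transcripts took 14.4% to 27.36% of counts at day 14, against 7.11% to 13.57% before. The genes followed here were mostly of low abundance, with counts in a library from 2 for Mmrn1 to 604 for Lyve1.

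**Figure D1:**
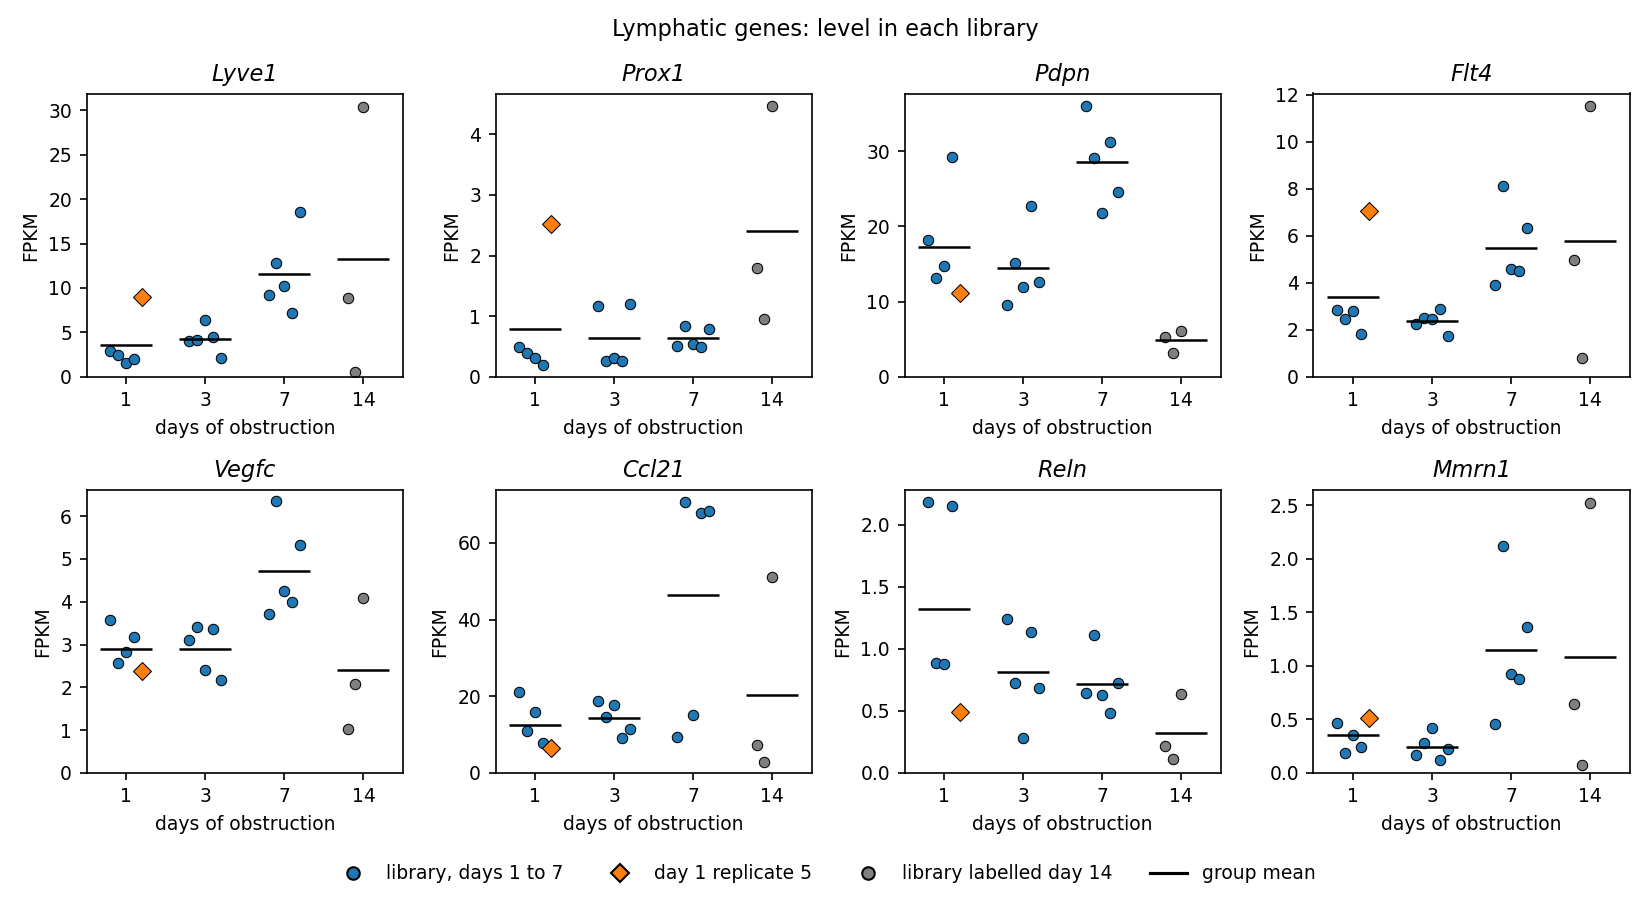
Level of each of the 8 genes in FPKM (vertical axis) by days of obstruction (horizontal axis), with 1 point per library and a bar at the group mean. Day 1 replicate 5 is a diamond and the libraries labelled day 14 are grey. Day 7 libraries lie above day 3 libraries for Vegfc, Flt4, Lyve1 and Mmrn1, and the grey points spread widely for every gene but Pdpn.

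After 7 days of obstruction the ligand, its receptor and most vessel markers lay higher than after 3 days. Vegfc, Flt4, Lyve1 and Mmrn1 were higher in all 5 day 7 libraries than in all 5 day 3 libraries, and Pdpn and Ccl21 were also higher on average, while Prox1 and Reln were not. Across all 8 genes the median log2 fold change of day 7 against day 3 was 1.03, beside 0.00 over all tested genes. With all 18 libraries in the model none of the 8 passed an adjusted p of 0.05 in this comparison (edgeR quasi-likelihood, Benjamini-Hochberg), where 1.05% of all genes did. At an unadjusted p under 0.05, 6 of the 8 passed, beside 18.8% of all tested genes, and DESeq2 called 2 of the 8 after adjustment, beside 909 genes in all. When the libraries labelled day 14 were left out, 4 of the 8 passed, namely Vegfc, Flt4, Pdpn and Mmrn1, where 7.92% of all genes did. The biological coefficient of variation was 0.233 without the day 14 libraries and 0.323 with them. In tissue RNA, fewer cells of a type and less RNA per cell cannot be told apart.

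Vegfc, the lymphatic growth factor, was at 3.58, 2.57, 2.83, 3.17 and 2.38 FPKM after 1 day, at 3.12, 3.40, 2.41, 3.37 and 2.17 FPKM after 3 days, and at 3.71, 6.36, 4.24, 4.00 and 5.33 FPKM after 7 days. The lowest day 7 library lay above the highest library of either earlier day, and the earlier days covered the same range. Day 7 exceeded day 3 by 0.64 ± 0.18 on the log2 scale (SE; adjusted p = 0.0453) and day 1 by 0.61 ± 0.18 (adjusted p = 0.0172) in the fit without day 14. With day 14 in the fit the values were 0.64 ± 0.26 (adjusted p = 0.191) and 0.62 ± 0.26 (adjusted p = 0.0892). Vegfc was the sole gene of the 8 whose day 7 libraries cleared day 1 altogether, and 21.2% of all tested genes separated those days in either direction. The separation of day 7 from day 3 was shown by 4 of the 8 genes, beside 8.30% of all tested genes.

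Flt4, which encodes the receptor for VEGF-C, was at 2.25, 2.51, 2.47, 2.88 and 1.76 FPKM after 3 days and at 3.91, 8.10, 4.57, 4.49 and 6.32 FPKM after 7 days. No day 7 library was as low as a day 3 library. The difference from day 3 was 1.13 ± 0.31 on the log2 scale (adjusted p = 0.0373) without day 14 and 1.14 ± 0.44 (adjusted p = 0.178) with it. After 1 day Flt4 was at 2.85, 2.45, 2.79, 1.82 and 7.07 FPKM, and the last of these, replicate 5, lay above 4 of the 5 day 7 libraries. Day 7 against day 1 gave 0.61 ± 0.43 (adjusted p = 0.323), and without both the day 14 libraries and day 1 replicate 5 it gave 1.02 (adjusted p = 0.00212). The latter fit was chosen after the data were seen, and the difference grows by itself on leaving out the highest day 1 library. That library is the one rich in Cdh5 and Plin1, and their part in its Flt4 level was not tested.

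Lyve1, the hyaluronan receptor of lymphatic capillaries, was at 4.01, 4.09, 6.34, 4.52 and 2.13 FPKM after 3 days and at 9.24, 12.9, 10.2, 7.22 and 18.6 FPKM after 7 days. The groups did not overlap, and the day 7 mean of 11.6 ± 4.39 FPKM stood beside 4.22 ± 1.5 FPKM at day 3 (SD, n = 5 each). The difference from day 3 was 1.39 ± 0.43 on the log2 scale without day 14 (adjusted p = 0.0569) and 1.39 ± 0.62 with it (adjusted p = 0.24), so it passed in neither. At day 1 Lyve1 was at 2.90, 2.44, 1.60, 2.01 and 8.96 FPKM, where replicate 5 again stood above the rest and inside the day 7 range. Day 7 exceeded day 1 by 1.60 ± 0.43 without day 14 (adjusted p = 0.009) and by 1.62 ± 0.63 with it (adjusted p = 0.068). Leaving out day 1 replicate 5 as well as day 14 raised this to 2.27 (adjusted p = 0.000193). That fit was chosen after the data were seen, and leaving out the highest day 1 library raises the difference by itself.

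Mmrn1, whose product is a large secreted glycoprotein, was the scarcest of the markers that moved. After 3 days it was at 0.162, 0.283, 0.421, 0.122 and 0.223 FPKM, which rested on 4 to 14 counts a library, and after 7 days at 0.453, 2.12, 0.920, 0.875 and 1.36 FPKM, from 14 to 67 counts. The lowest day 7 library was just above the highest day 3 library. Its log2 fold change of 2.16 was the largest of the 8 in this comparison, with an SE of 0.43 and an adjusted p of 0.0115 without day 14, and an SE of 0.59 and an adjusted p of 0.0785 with it. At day 1 Mmrn1 was at 0.465, 0.185, 0.357, 0.237 and 0.509 FPKM, so 2 of those libraries reached the lowest day 7 value. Day 7 exceeded day 1 by 1.56 ± 0.40 (adjusted p = 0.0074) without day 14 and by 1.59 ± 0.57 (adjusted p = 0.0505) with it. Summed FPKM of 8 platelet genes was 22.7 to 49.4 at day 7, against 9.69 to 17.4 at day 3. Most of that sum was the platelet chemokine gene Pf4, at 15.8 to 43.2 FPKM at day 7, against 5.47 to 12.8 FPKM at day 3, with a log2 fold change of 1.74 ± 0.33 (adjusted p = 0.0282). The platelet integrin gene Itga2b differed by 0.14 ± 0.28 (adjusted p = 0.851), the other 6 did not pass the filter on low counts, and the part of platelets in the Mmrn1 level was not tested.

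Pdpn, the membrane mucin podoplanin, was among the more abundant of the 8. It was at 18.1, 13.1, 14.8, 29.2 and 11.1 FPKM after 1 day, at 9.59, 15.2, 12.0, 22.7 and 12.6 FPKM after 3 days, and at 36.0, 29.0, 21.7, 31.2 and 24.6 FPKM after 7 days. Replicate 4 of day 1 and of day 3 reached into the day 7 range, and no other earlier library did. Day 7 exceeded day 3 by 0.92 ± 0.26 on the log2 scale without day 14 (adjusted p = 0.042) and by 0.92 ± 0.25 with it (adjusted p = 0.0769). Against day 1 the difference was 0.63 (adjusted p = 0.0623) and 0.64 ± 0.25 (adjusted p = 0.0702) in the same fits. Podocyte genes, 9 of 9 found, summed to 72.9 to 229 FPKM at day 7, against 87.4 to 198 FPKM at day 3 and 99.4 to 153 FPKM at day 1. Fibroblast genes, of which 9 of 10 contribute because Col1a2 is listed at 0 in all 18 libraries, summed to 559 to 856 FPKM at day 7, against 214 to 332 FPKM at day 3 and 202 to 333 FPKM at day 1, without overlap, and their part in the Pdpn level was not tested.

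Ccl21, the chemokine that draws CCR7-bearing dendritic cells and T cells to lymphatic vessels, split the day 7 libraries. Replicates 2, 4 and 5 held 70.5, 67.9 and 68.3 FPKM, and replicates 1 and 3 held 9.45 and 15.2 FPKM. All 10 earlier libraries lay between 6.54 and 21.1 FPKM, a range that takes in the 2 low day 7 libraries. Day 7 averaged 46.3 ± 31.1 FPKM, against 14.3 ± 4.10 FPKM at day 3 and 12.5 ± 6.02 FPKM at day 1 (SD, n = 5 each). Ccl21 was the sole member of the 8 called between day 7 and day 1 with all 18 libraries, by 1.79 ± 0.64 on the log2 scale (adjusted p = 0.0487), where 25.6% of all genes were called. This call was lost in 12 of 18 fits that left out a single library, with log2 fold changes of 1.60 to 2.06 and an adjusted p of up to 0.111. Without day 14 it was 1.77 ± 0.51 (adjusted p = 0.013), and against day 3 the difference of 1.60 ± 0.50 was not called (adjusted p = 0.0608).

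Some other immune transcripts were higher in the same 3 day 7 libraries. Ccl19, the other CCR7 ligand, was at 80.3, 163 and 30.03 FPKM in replicates 2, 4 and 5, and at 19.96 and 19.6 FPKM in replicates 1 and 3. Cxcl13, a B cell chemokine, was at 106, 195 and 66.9 FPKM in replicates 2, 4 and 5 and at 23.3 and 6.47 FPKM in replicates 1 and 3. C1qa, a complement gene of macrophages, was at 218, 269 and 168 FPKM in replicates 2, 4 and 5, and at 82.0 and 68.1 FPKM in replicates 1 and 3. Ccl19 in replicate 5 lay inside its day 3 range of 21.3 to 36.5 FPKM. The B cell gene Cd79a did not follow the split, at 1.29, 10.2 and 2.34 FPKM in replicates 2, 4 and 5. It was at 2.21 and 2.42 FPKM in replicates 1 and 3. Cd79b of the same list did follow it, at 1.69, 3.59 and 2.95 FPKM against 0.494 and 1.29 FPKM. The part of these cells in the Ccl21 split was not tested.

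Prox1, the lymphatic identity factor, was not called in any comparison of days 1, 3 and 7. It was at 0.494, 0.401, 0.303, 0.201 and 2.52 FPKM after 1 day, at 1.17, 0.260, 0.307, 0.253 and 1.21 FPKM after 3 days, and at 0.515, 0.845, 0.540, 0.495 and 0.797 FPKM after 7 days. The high libraries were replicate 5 of day 1 and replicates 1 and 5 of day 3, and the 3 days overlapped. Day 7 differed from day 3 by −0.08 ± 0.64 on the log2 scale (adjusted p = 0.97) and from day 1 by −0.38 ± 0.63 (adjusted p = 0.699). Without day 1 replicate 5 and day 14 the difference from day 1 was 0.74 (adjusted p = 0.244), so its sign rested on that library. In day 3 replicates 1 and 5 the loop of Henle gene Slc12a1 was at 174 and 192 FPKM, against 35.8 to 61.7 FPKM in the other 3 day 3 libraries. In day 1 replicate 5 Slc12a1 was at 50.03 FPKM, against 21.4 to 48.18 FPKM in the rest of day 1. Other thick ascending limb genes differed in that library. Cldn10 was at 56.1 FPKM in it, against 9.03 to 16.9 FPKM in the rest of day 1. In day 3 replicates 1 and 5 Cldn10 was at 40.9 and 83.4 FPKM, against 20.9 to 23.8 FPKM in the rest of day 3. Umod was at 16.6 FPKM in day 1 replicate 5, against 55.7 to 77.4 FPKM in the rest of day 1. Slc12a1 was at 10.81, 254.4 and 4.805 FPKM in day 14 replicates 1, 2 and 3. Prox1 was at 1.80, 0.959 and 4.46 FPKM in these. The part of tubule cells in the Prox1 level was not tested.

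Reln, which encodes the secreted glycoprotein reelin, was at 2.18, 0.882, 0.879, 2.15 and 0.487 FPKM after 1 day, at 1.24, 0.723, 0.279, 1.13 and 0.687 FPKM after 3 days, and at 0.640, 1.11, 0.625, 0.484 and 0.727 FPKM after 7 days. Its group means were lower at each later day, at 0.717 ± 0.236 FPKM at day 7, against 0.813 ± 0.386 FPKM at day 3 and 1.32 ± 0.792 FPKM at day 1 (SD, n = 5 each), with overlap throughout. The difference of day 7 from day 1 was −0.95 ± 0.45 on the log2 scale (adjusted p = 0.134) and was −1.19 (adjusted p = 0.0217) without day 14 and day 1 replicate 5. The latter fit was chosen after the data were seen, and it leaves out the lowest day 1 library of Reln, which widens the difference by itself. Reln was the sole gene of the 8 that was called lower in any of these fits over days 1, 3 and 7.

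**Figure D2:**
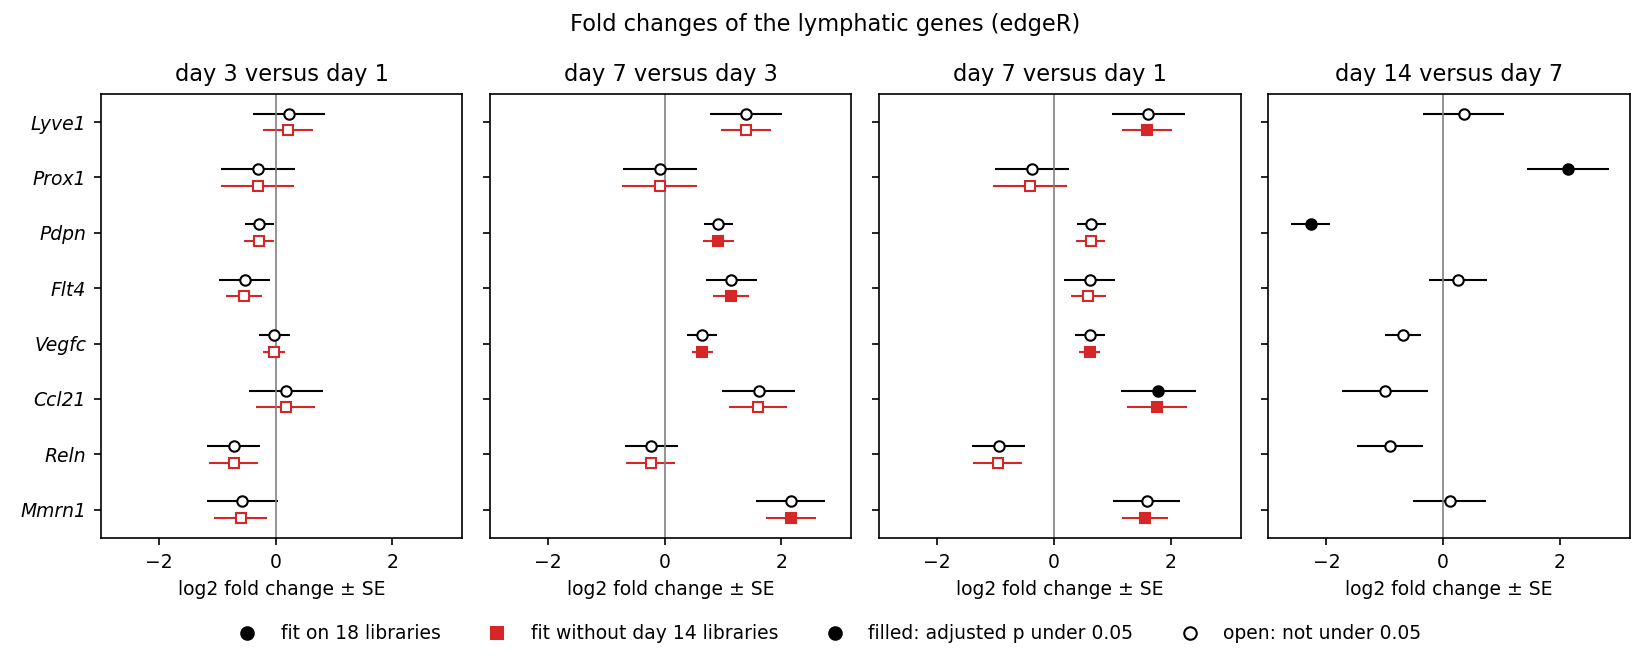
Log2 fold change (horizontal axis) with its SE for the 8 genes in 4 comparisons, from edgeR on 18 libraries (circles) and without the day 14 libraries (squares). Filled symbols have an adjusted p under 0.05. Day 7 against day 3 has no filled circle and 4 filled squares, and day 14 against day 7 has Prox1 to the right at 2.14 and Pdpn to the left at −2.27.

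Between 1 and 3 days no gene of the 8 changed by either fit, where 2.27% of all genes were called with 18 libraries and 10.5% without day 14. None of the 8 separated those days, beside 8.04% of all tested genes. The log2 fold changes ran between −0.72 ± 0.45 for Reln (adjusted p = 0.415) and 0.23 ± 0.62 for Lyve1 (adjusted p = 0.883), with a median of −0.29 beside −0.01 over all tested genes. At an unadjusted p under 0.05 none of the 8 passed, while 2624 of all tested genes did, and DESeq2 called none of the 8. Lyve1 was at 0.89 (adjusted p = 0.0875) without day 14 and day 1 replicate 5.

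Over days 1 and 7, 4 of the 8 were called without day 14, namely Lyve1, Mmrn1, Ccl21 and Vegfc, all higher at day 7, where 38.2% of all genes were called. The median of the 8 was 0.63 with 18 libraries, beside 0.01 over all tested genes. A test for any difference among days 1, 3 and 7 called 6 of the 8, where 34.4% of all genes were called. Mmrn1 had the smallest adjusted p (0.00255), followed by Lyve1 (0.0127), Ccl21 (0.0159), Vegfc (0.0178), Pdpn (0.0264) and Flt4 (0.0269), and Reln (0.155) and Prox1 (0.842) did not pass. With day 14 included, 4 of the 8 differed among the 4 durations, where 47.7% of all genes did, with adjusted p values of 0.000437 for Pdpn, 0.012 for Mmrn1, 0.0393 for Prox1 and 0.0434 for Lyve1.

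Per unit of gene length, mean levels at day 7 placed Ccl21 and Pdpn at the top of the 8 genes and Reln and Prox1 at the bottom. Ccl21 averaged 46.3 FPKM and Pdpn 28.5 FPKM, with overlapping libraries. Lyve1 at 11.6 FPKM lay below every Pdpn library, and its lowest library overlapped the highest of Flt4, which averaged 5.48 FPKM. Flt4 and Vegfc, at 4.73 FPKM, overlapped. Mmrn1 at 1.15 FPKM lay below every Vegfc library and overlapped Reln at 0.717 FPKM and Prox1 at 0.638 FPKM.

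Each level was also set against the mean of 11 endothelial genes of 12 listed (Cdh5, Emcn, Ehd3, Plvap, Flt1, Eng, Vwf, Esam, Cldn5, Robo4 and Egfl7), as a difference in log2(FPKM + 0.1). Those 11 genes summed to 185 to 297 FPKM at day 7, against 134 to 187 FPKM at day 3 and 127 to 418 FPKM at day 1. Of the 11, none was called between day 7 and day 3, with a median log2 fold change of 0.55 and 2 at an unadjusted p under 0.05, beside 18.8% of all tested genes, and none was called without day 14. Relative to them, Mmrn1 was at −3.69 ± 0.55 at day 7, against −5.01 ± 0.43 at day 3 (SD, n = 5 each), with ranges of −4.33 to −2.89 and −5.49 to −4.48 that did not overlap. Lyve1 was at −0.38 ± 0.48 at day 7, against −1.37 ± 0.44 at day 3, and Flt4 at −1.42 ± 0.29, against −2.11 ± 0.22, each with a slight overlap. Vegfc was at −1.61 ± 0.22 at day 7, against −1.84 ± 0.27 at day 3, with wide overlap. Pdpn (0.96 against 0.39) and Ccl21 (1.25 against 0.40) were higher at day 7 than at day 3 on average, with overlap. Prox1 (−4.32 against −4.11) and Reln (−4.19 against −3.66) were lower, with overlap. Mmrn1 at day 1 spanned −5.36 to −4.20, which overlaps its day 7 range. At day 1 Flt4 was at −1.87 ± 0.12, the smallest SD of the 8 genes on that day, and day 1 replicate 5 lay inside the range of its group. These ratios are a description chosen after the data were seen, with no test and no share of all genes that separate on them.

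**Figure D3:**
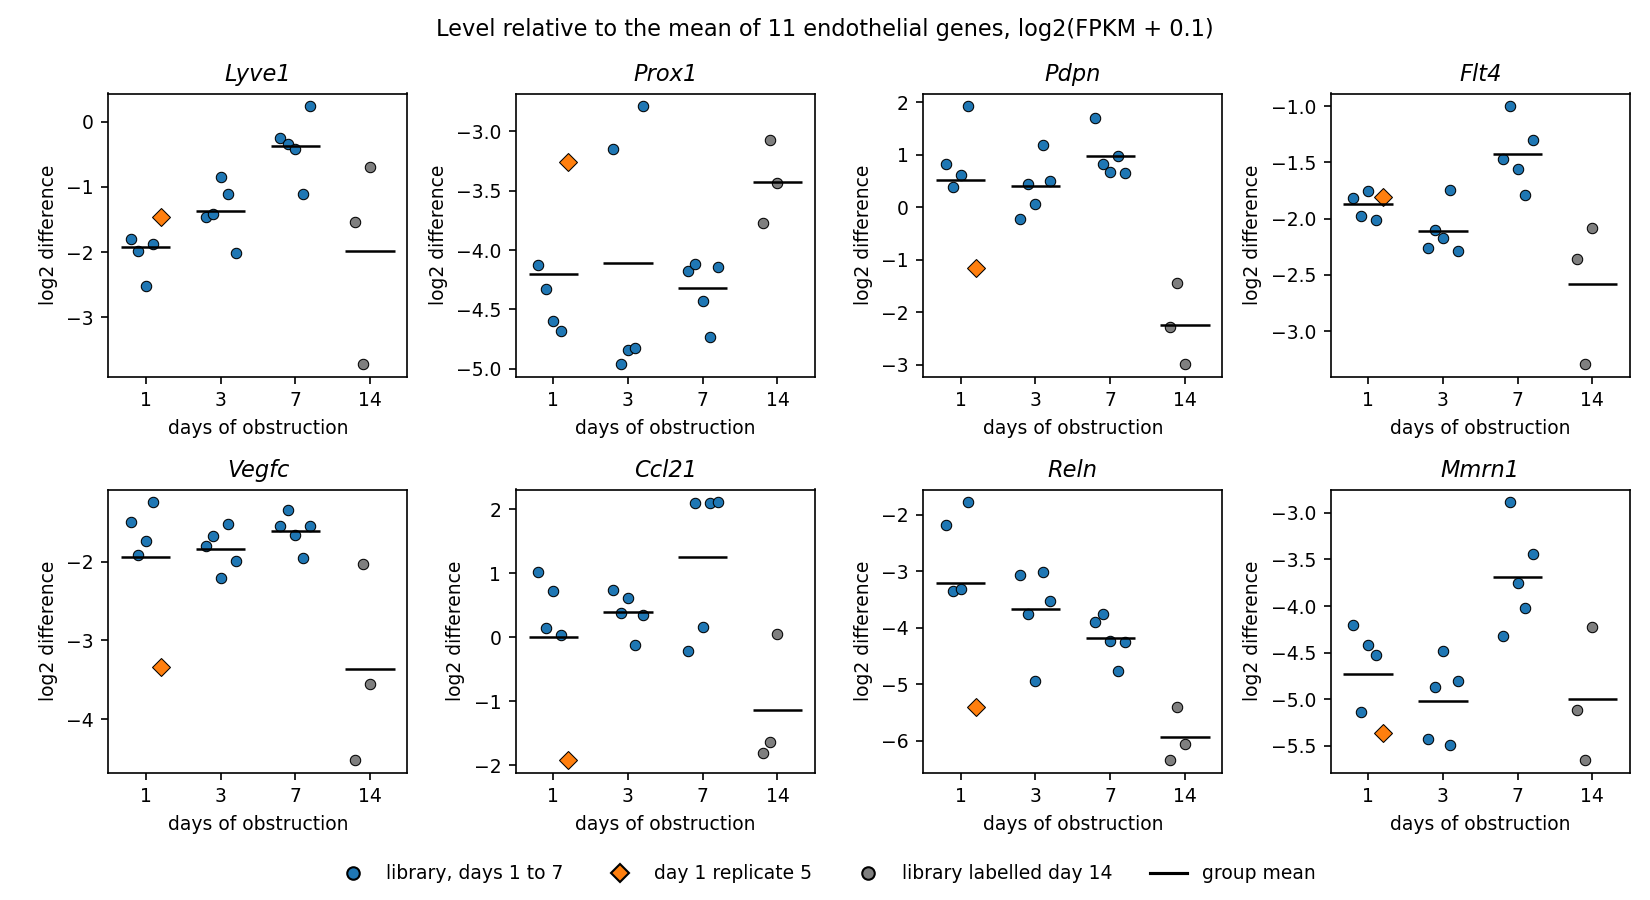
Level of each of the 8 genes relative to the mean of 11 endothelial genes, as a difference in log2(FPKM + 0.1) (vertical axis), by days of obstruction (horizontal axis), with 1 point per library and a bar at the group mean. Mmrn1 at day 7 lies at −4.33 to −2.89, above day 3 at −5.49 to −4.48, and Flt4 in day 1 replicate 5 (diamond) falls within its group.

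Macrophage genes were also higher at day 7. The 12 listed genes summed to 258 to 1000 FPKM at day 7, against 175 to 347 FPKM at day 3 and 121 to 246 FPKM at day 1. Of 11 tested, 8 were called higher between day 7 and day 1, where 25.6% of all genes were called. Stab1, a scavenger receptor of macrophages and sinusoidal endothelium, was at 10.2, 14.3, 8.91, 12.8 and 22.1 FPKM at day 7, against 6.94, 4.56, 5.62, 7.48 and 4.21 FPKM at day 3, and replicate 5 was highest at day 7 for both Stab1 and Lyve1. C1qa was highest in day 7 replicate 4, which had the lowest Lyve1 of that day. The part of macrophages in the Lyve1 level was not tested.

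Libraries labelled day 14 gave 2 calls among the 8, where 38.3% of all genes were called against day 7. Pdpn was at 5.26, 3.17 and 6.12 FPKM at day 14, below all 5 day 7 libraries (21.7 to 36.0 FPKM) and below every library of the time course. It fell by 2.27 ± 0.33 on the log2 scale (adjusted p = 0.000119). Prox1 was at 1.80, 0.959 and 4.46 FPKM at day 14, above the highest day 7 library at 0.845 FPKM, and rose by 2.14 ± 0.70 (adjusted p = 0.0245). Without day 14 replicate 3 the Prox1 difference was 1.49 (adjusted p = 0.147), and its call was also lost without day 7 replicate 4 (adjusted p = 0.0511). The 2 genes were the ones whose libraries separated these days, beside 29.5% of all tested genes.

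The other 6 were spread across the 3 libraries. Lyve1 was at 8.86, 0.577 and 30.4 FPKM, Flt4 at 4.97, 0.809 and 11.5 FPKM, and Mmrn1 at 0.647, 0.0772 and 2.53 FPKM, in day 14 replicates 1, 2 and 3. Each was highest in replicate 3 and lowest in replicate 2, as was Cdh5 at 16.1, 3.78 and 40.2 FPKM. Ccl21 followed with 7.32, 2.77 and 51.2 FPKM and Reln with 0.220, 0.109 and 0.638 FPKM, while Vegfc was at 1.03, 2.09 and 4.08 FPKM. None of these 6 differed from day 7 at an adjusted p under 0.05 with all 18 libraries, with log2 fold changes between −1 ± 0.74 for Ccl21 (adjusted p = 0.304) and 0.35 ± 0.69 for Lyve1 (adjusted p = 0.729). Without day 14 replicate 3, Ccl21 (−2.81, adjusted p = 0.0142) and Vegfc (−1.14, adjusted p = 0.0168) were called lower, and limma on log2(FPKM + 1) also called Vegfc lower (−0.83, adjusted p = 0.00935). With day 14 replicate 2 as the sole day 14 library, assumed to vary like the other groups, Lyve1 (−3.72, adjusted p = 0.0157), Mmrn1 (−3.24, adjusted p = 0.0304), Flt4 (−2.15, adjusted p = 0.0221) and Ccl21 (−3.44, adjusted p = 0.0411) were called lower and Prox1 was not called (adjusted p = 0.398). That fit was chosen after the data were seen, and 32.5% of all genes were called in it. The endothelial sum was 578, 132 and 1600 FPKM in the same 3 libraries, and the fat cell gene Plin1 was at 18.7, 0 and 142 FPKM. Their part in the lymphatic gene levels was not tested, and the labelled duration and the make-up of these libraries cannot be told apart.

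**Figure D4:**
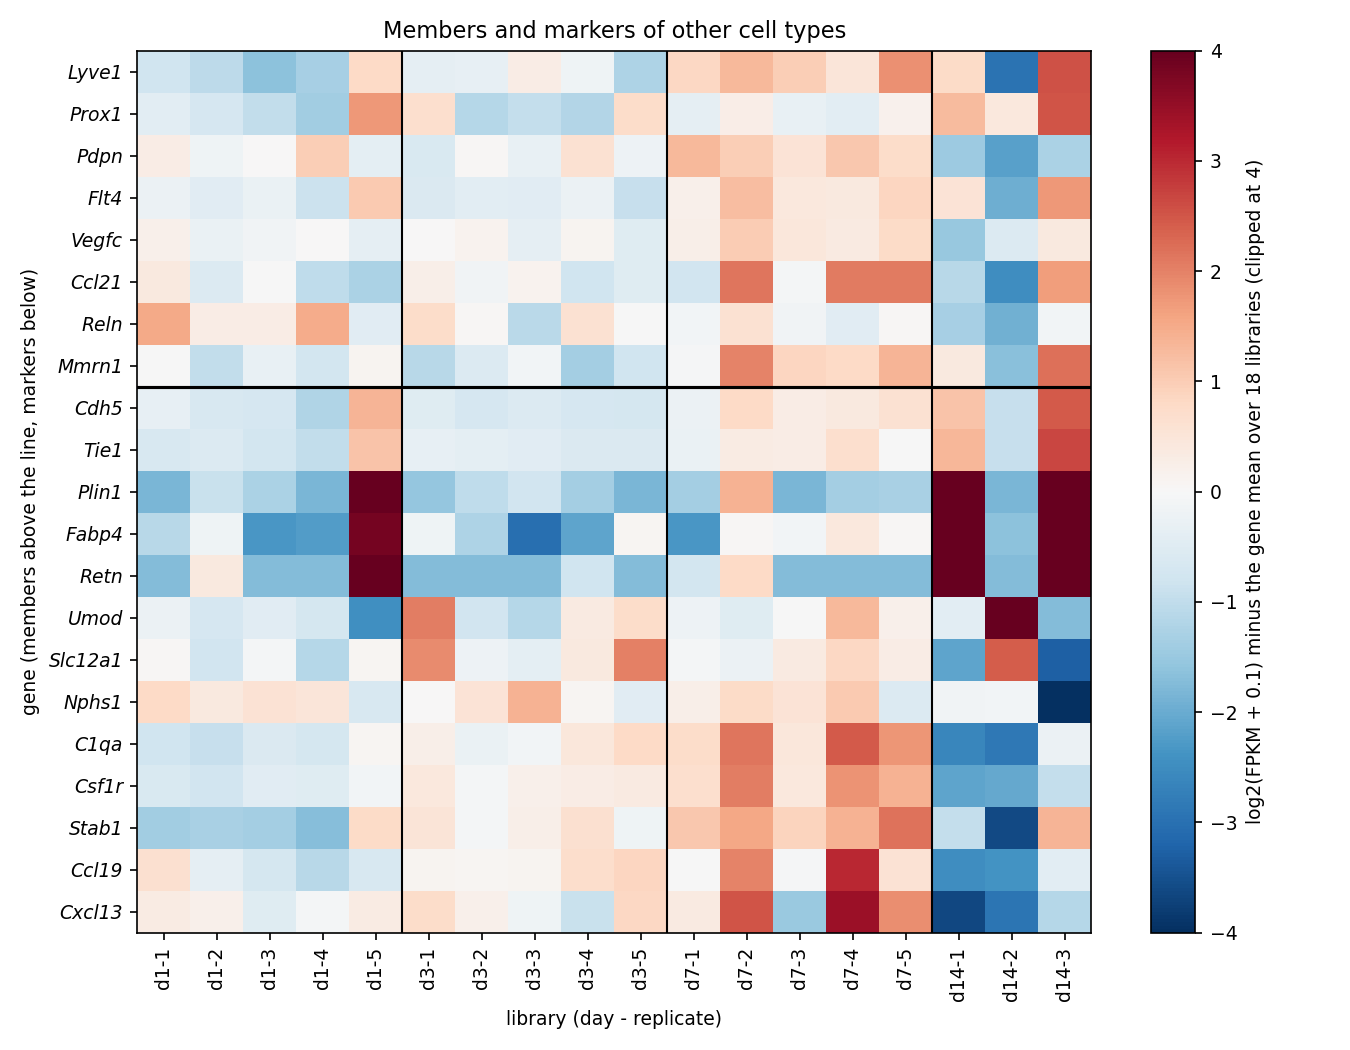
Heat map of log2(FPKM + 0.1) minus the mean of the gene over 18 libraries, clipped at 4, with the 8 genes above the line and markers of other cell types below it, and libraries in columns by day and replicate. Day 1 replicate 5 and day 14 replicates 1 and 3 share high Plin1, Fabp4, Retn, Cdh5 and Tie1 with high Prox1. Prox1 was also at 1.17 and 1.21 FPKM in day 3 replicates 1 and 5 and at 0.959 FPKM in day 14 replicate 2. Plin1 was at 0.0217 FPKM in day 3 replicate 1 and at 0 FPKM in day 3 replicate 5 and day 14 replicate 2. Day 7 replicates 2, 4 and 5 share high Ccl21 with high C1qa and Cxcl13.

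Of the wider lymphangiogenesis pathway, 55 further genes in 6 lists were looked up, 54 were found and 49 were tested. None was called between day 3 and day 1, with 8 at an unadjusted p under 0.05, beside 18.1% of all tested genes, and 2 rose between day 7 and day 3, where 1.05% of all genes were called. Between day 7 and day 1, 15 rose and none fell, beside 1787 higher and 1926 lower among all 14511 tested genes (25.6% called). Between day 14 and day 7, 12 rose and 11 fell, beside 3102 higher and 2458 lower among all tested genes (38.3% called). The median log2 fold change over the 49 was 0.00, 0.47, 0.45 and −0.05 in the 4 comparisons in that order, beside −0.01, 0.00, 0.01 and 0.07 over all tested genes. Without day 14, 47 were tested, of which 8 rose between day 7 and day 3, and 14 rose and 3 fell between day 7 and day 1. Of the 15 rises between day 7 and day 1, 13 were tested in that fit and all 13 were called again. Day 14 replicates 1 and 3 were the libraries high in Plin1 and Cdh5, and a fit without both keeps 1 day 14 library. That fit was chosen after the data were seen, and its lower precision can itself lose calls. Among the 12 rises, Angpt2, Tek and Fat4 were at −0.15, 0.35 and −0.01 in it, against 3.41, 2.29 and 2.01 with 18 libraries. Among the 11 falls, Adamts14, Lcp2 and Gja1 were at −3.10, −2.85 and −3.22, against −2.39, −2.56 and −2.09. The part of fat and vessel cells in the 12 rises and 11 falls was not tested.

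Among 14 growth factors, processing proteases and anchors, 3 rose and none fell between day 7 and day 1, where 25.6% of all genes were called. Without day 14, 3 rose and 2 fell, where 38.2% of all genes were called. Furin, a protease gene of the list, was at 59.8 to 70.7 FPKM at day 7, against 82.8 to 125 FPKM at day 1. Adamts2 and Adamts14 encode procollagen peptidases that can also trim VEGF-C. Adamts14 was at 2.15 ± 0.604 FPKM at day 7, against 0.862 ± 0.159 at day 3 and 0.741 ± 0.171 at day 1 (SD, n = 5 each), and rose by 1.25 ± 0.24 on the log2 scale against day 3 (adjusted p = 0.0285) and by 1.45 ± 0.24 against day 1 (adjusted p = 0.000773). Adamts2 was at 4.62 ± 1.47 FPKM at day 7, against 0.672 ± 0.156 at day 1, a rise of 2.69 ± 0.45 (adjusted p = 0.000718). Vegfd, the other ligand of VEGFR-3, listed in the table under its older symbol Figf, was at 9.08 ± 2.71 FPKM at day 7, against 4.88 ± 1.16 at day 3 and 3.03 ± 0.424 at day 1. It rose by 1.49 ± 0.39 between day 7 and day 1 (adjusted p = 0.011), and by 0.82 ± 0.20 between day 7 and day 3 without day 14 (adjusted p = 0.0244). Vegfd, Ccbe1, Adamts3 and Furin are named outside the rule for named genes, after their values were seen, because they act with Vegfc. Ccbe1, which encodes the collagen-like cofactor of VEGF-C processing, differed by 0.17 ± 0.56 between day 7 and day 1 (adjusted p = 0.848). Adamts3, a related protease of the same list, was not among the 3 rises. It was at 0.463 ± 0.127 FPKM at day 7, against 0.244 ± 0.0545 at day 3 and 0.449 ± 0.199 at day 1. Angpt2, a ligand of the TIE2 receptor, was at 52.4, 2.55 and 66.7 FPKM in day 14 replicates 1, 2 and 3, against 3.11 to 6.08 FPKM at day 7. Its log2 fold change was 3.41 ± 0.60 (adjusted p = 0.00049), and −0.15 ± 0.62 (adjusted p = 0.879) without replicates 1 and 3. Replicate 2 lay below every day 7 library. Adamts14 fell by 2.39 ± 0.32 between day 14 and day 7 (adjusted p = 7.07e-05).

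Of 9 receptors and co-receptors, 1 rose between day 7 and day 1, where 25.6% of all genes were called. Between day 14 and day 7, 3 rose and 1 fell, where 38.3% of all genes were called. Nrp2, the co-receptor that lymphatic endothelium pairs with VEGFR-3, was at 10.5 ± 2.24 FPKM at day 7, against 4.89 ± 1.07 at day 3 and 3.44 ± 1.23 at day 1 (SD, n = 5 each). Its lowest day 7 library at 8.04 FPKM was above the highest earlier library at 6.62 FPKM. It rose by 1.53 ± 0.39 on the log2 scale against day 1 (adjusted p = 0.00923), and by 1.02 ± 0.22 against day 3 without day 14 (adjusted p = 0.015). Nrp1, its counterpart in blood vessels, differed by 0.26 ± 0.15 between day 7 and day 1 (adjusted p = 0.234) and fell by 0.83 ± 0.18 between day 14 and day 7 (adjusted p = 0.0027). With replicate 2 as the sole day 14 library the Nrp1 difference was −0.67 ± 0.29. Tek, which encodes TIE2, was at 31.3, 7.76 and 81.4 FPKM in day 14 replicates 1, 2 and 3, against 7.62 to 11.3 FPKM at day 7. Its log2 fold change was 2.29 ± 0.53 (adjusted p = 0.00347), and 0.35 ± 0.65 (adjusted p = 0.718) without replicates 1 and 3.

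Transcription factors of lymphatic identity, 8 tested of 9 listed, gave 4 rises between day 7 and day 1, where 25.6% of all genes were called. Nr2f2, whose product COUP-TFII acts with PROX1, was at 53.8 ± 6.59 FPKM at day 7, against 41.6 ± 5.25 at day 3 and 31.8 ± 5.42 at day 1 (SD, n = 5 each). It rose by 0.68 ± 0.13 on the log2 scale against day 1 (adjusted p = 0.00153). Tbx1, a T-box factor that acts upstream of Flt4 in mouse lymphatic development, was low, at 0.725 to 1.96 FPKM at day 7, against 0.0747 to 0.347 FPKM at day 3. It rose by 2.63 ± 0.51 (adjusted p = 0.0285), and it did not pass the filter on low counts without day 14. Passing with 18 libraries may have depended on the libraries where it was high, so its rise is not independent of the filter. Foxc2, a forkhead factor of lymphatic valves named for its likeness to Mmrn1, differed by 0.76 ± 0.30 between day 7 and day 1 (adjusted p = 0.0701).

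Among genes of valves and collecting vessels, 2 of 11 tested rose between day 7 and day 1, where 25.6% of all genes were called. Emilin1, an elastic fibre glycoprotein of lymphatic anchoring filaments, rose by 0.47 ± 0.15 on the log2 scale (adjusted p = 0.0332), and Gja1, a connexin of lymphatic valves that many kidney cells also express, by 1.07 ± 0.34 (adjusted p = 0.0294). Both fell between day 14 and day 7, by 1.11 ± 0.19 (adjusted p = 0.000337) and by 2.09 ± 0.43 (adjusted p = 0.00155). Fat4, a large cadherin, was at 0.690, 0.128 and 1.25 FPKM in day 14 replicates 1, 2 and 3, against 0.143 to 0.298 FPKM at day 7. Its log2 fold change was 2.01 ± 0.69 (adjusted p = 0.0312), and −0.01 ± 1.16 (adjusted p = 0.997) without replicates 1 and 3.

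In the list of CCR7 and its ligands, atypical and scavenger receptors, 3 of 6 were tested. All 3 rose between day 7 and day 1, where 25.6% of all genes were called. Without day 14, 2 were tested and both rose, where 38.2% of all genes were called. Ccl19 rose by 1.83 ± 0.55 on the log2 scale (adjusted p = 0.0227), Ccr7, the receptor for CCL21, by 1.36 ± 0.46 (adjusted p = 0.0378) and Stab1 by 2.10 ± 0.62 (adjusted p = 0.0202). Ccr7 itself was scarce, at 0.939 to 2.41 FPKM at day 7, against 0.334 to 0.896 FPKM at day 1. These rested on 9 to 23 and on 3 to 14 counts a library. Ccr7 did not pass the filter on low counts without day 14. Passing with 18 libraries may have depended on the day 7 libraries, so its rise is not independent of the filter. Ccl19 and Ccr7 fell between day 14 and day 7, by 2.82 ± 0.72 (adjusted p = 0.00638) and by 2.23 ± 0.64 (adjusted p = 0.0122). With replicate 2 as the sole day 14 library the Ccl19 difference was −3.44 ± 1.28. Of the signalling genes behind CLEC-2, the platelet receptor for podoplanin, 4 of 5 were tested and 2 rose between day 7 and day 1, Lcp2 by 1.69 ± 0.28 (adjusted p = 0.000648) and Syk by 0.99 ± 0.31 (adjusted p = 0.0263). Leukocytes use both of these as well, and T cell genes, of which 6 of 6 rose between the same days, summed to 44.7 to 158 FPKM at day 7, against 14.4 to 19.3 FPKM at day 1.

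Across the 15 libraries of days 1, 3 and 7, the 8 genes were compared by Spearman correlation of log2(FPKM + 1), given as a description, since the libraries share their days and their sequencing depth with every gene. Lyve1 and Flt4 went together at 0.83, Flt4 and Mmrn1 at 0.80, Pdpn and Vegfc at 0.75 and Lyve1 and Mmrn1 at 0.72. Prox1 was highest with Lyve1 (0.44) and Mmrn1 (0.39) and lowest with Pdpn (−0.29), and Reln at −0.42 with Lyve1.

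The nearest tested genes in the same measure were Rasl11b (0.96), Mcam (0.96) and Nexn (0.95) for Lyve1, and Eng (0.94), Uaca (0.92) and Cybrd1 (0.92) for Flt4. Mcam and Eng encode endothelial surface proteins. Notch3 (0.91), Foxc2 (0.86) and Dpysl2 (0.86) came nearest to Mmrn1, and Loxl1 (0.95), Olfml3 (0.94) and Il24 (0.90) to Vegfc. For Pdpn they were Ilk (0.94), Setd4 (0.92) and Vdac3 (0.90), and for Reln Wasf1 (0.88), Msn (0.84) and Cecr5 (0.84). Ccl21 was nearest to Igh-1a (0.85), Itga11 (0.83) and Igj (0.81), of which Igh-1a and Igj are immunoglobulin genes of plasma cells. Prox1 was nearest to Mctp2 (0.90), Dnah2 (0.89) and Vash2 (0.89).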

How the data were processed

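Poly(A) RNA of rat renal parenchyma was sequenced as 18 libraries, grouped by their labelled duration of ureter ligation, and all carry the same batch label. Per the submitters' processing notes, reads passed through fastp 0.19.7 and HISAT2 2.0.4. Which program counted reads, with which strand setting, annotation and genome build, is not given in the sources used here. The deposited table holds raw counts, per the file headers, with FPKM beside them in the same deposited table. These FPKM equal the count divided by 1 length per gene and by the library total (checked on 8250 genes with at least 50 counts in every library, largest ratio of implied lengths 1.00002).

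Library totals were 5488540 to 12049915 counts. The filter was filterByExpr (min.count 10, min.total.count 15). Counts were scaled by TMM factors and tested by the quasi-likelihood method of edgeR 4.0.16 under R 4.3.3, in a joint model with 1 coefficient per duration. A call needed an adjusted p under 0.05 (Benjamini-Hochberg over all tested genes), and SE is the log2 fold change over the root of the F statistic. The test was checked on simulated counts. Pseudocounts were 0.1 for ratios and heat map and 1 for correlations. Alternatives used RLE factors, DESeq2 1.42.0, other filters, limma 3.58.1 on FPKM, robust variance, the replicate number as a block, the 2 groups alone, a fit without day 14, and each library left out in turn.

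Named genes were the 8 members, up to 3 called genes of each of 6 pathway lists by smallest p, and the 3 genes nearest to each member by Spearman correlation. Of the genes this rule takes, 1 is not reported here. The members, lists and tests were chosen with earlier results of these data known. Markers came from 13 lists with 104 of 107 genes found. Besides those given with the results, the summed FPKM at days 1, 3, 7 and 14 were 378 to 989, 573 to 2960, 533 to 1990 and 196 to 2210 for proximal tubule and 298 to 384, 367 to 962, 305 to 618 and 118 to 3150 for thick ascending limb. They were 62.1 to 182, 107 to 1060, 78.9 to 242 and 373 to 2640 for adipocytes, a list that includes genes the kidney also expresses. B cell genes summed to at most 20.5, hepatocyte genes to at most 20.3 and skeletal muscle genes to at most 9.88 FPKM in any library, and lymph node stroma genes to 41 to 472 FPKM.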

Additional observations from a re-analysis of the deposited data

Results flagged for a closer look

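Day 1 replicate 5 lay far above the other 4 day 1 libraries for 3 of the 8 genes. Its gap to the next library, as a share of the whole range of the group, was above the critical value of 0.71 for 5 libraries. Lyve1 was at 8.96 FPKM in it, against 2.90 FPKM in the next and 1.60 FPKM in the lowest library, a share of 0.824. Prox1 was at 2.52 FPKM, against 0.494 and 0.201 FPKM, a share of 0.874. Flt4 was at 7.07 FPKM, against 2.85 and 1.82 FPKM, a share of 0.802. In all, 24 groups of values were looked at and chance marks about 1 in 20. The same library was high in Cdh5, Plin1 and Fabp4, at 18.5, 6.41 and 96.5 FPKM, and their part in these levels was not tested.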

How the results depend on the processing

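Precision is limited by 3 libraries at day 14, by 5 at the other durations and by counts as low as 2 for Mmrn1. Pdpn fell between day 14 and day 7 in every fit run, and by 2.13 to 2.36 on the log2 scale when single libraries were left out. Genes called between day 3 and day 1 (330) numbered 951 with DESeq2, 171 with no filter, 139 with the replicate number as a block, 1203 with the 2 groups alone, 1463 without day 14 and 2016 without day 14 and day 1 replicate 5, a fit chosen after seeing the data. Those between day 7 and day 3 (152) numbered 909, 64, 39, 981, 1108 and 1772 in the same order, and 42 with limma on log2(FPKM + 0.1). Between day 7 and day 1 (3713) there were 5841 without day 14 and day 1 replicate 5, and between day 14 and day 7 (5560) 3153 with the 2 groups alone. Single libraries left out gave 115 to 1159 (the ends without day 1 replicate 3 and day 14 replicate 2), 14 to 870 (without day 3 replicate 2 and day 14 replicate 2), 2834 to 5146 and 4559 to 7459 genes in the order above.

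Of the 8 genes, those called between day 7 and day 3 (0) numbered 2 with DESeq2, 4 with the 2 groups alone, 4 without day 14 and 6 without day 14 and day 1 replicate 5, and 0 to 2 with single libraries left out. Between day 7 and day 1 (1) they numbered 3 with DESeq2, 0 with no filter, 2 at a minimum count of 30, 4 with the 2 groups, 4 without day 14 and 6 without day 1 replicate 5 as well, and 0 to 3 with single libraries left out. Between day 14 and day 7 (2) there were 1 to 3, and 5 without day 14 replicates 1 and 3, a fit also chosen after seeing the data, and between day 3 and day 1 none in any of these fits. Those differing among the 4 durations (4) numbered 8 with DESeq2, 2 with no filter, 2 with limma on log2(FPKM + 1), 2 on log2(FPKM + 0.1) and 2 to 6 with single libraries left out, and among the first 3 durations (6) 3 to 7.

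The differences whose sign turned were all uncalled with 18 libraries. Prox1 between day 7 and day 3 was 0.05 and 0.24 with limma (pseudocounts 1 and 0.1) and 0.22 with the replicate block, and between day 7 and day 1 it was 0.00, 0.21 and 0.20, and 0.74 without day 14 and day 1 replicate 5. Between day 14 and day 7 limma gave −0.62 and −0.97 for Lyve1, −0.30 and −0.52 for Flt4 and −0.17 and −0.67 for Mmrn1, which was −0.22 with the block, and without day 14 replicates 1 and 3 these genes were at −3.72, −2.15 and −3.24, and limma also moved the median of all genes in that comparison to −0.26 and −0.32, against 0.07. Between day 3 and day 1, without day 14 and day 1 replicate 5, Prox1 was 0.84 and Ccl21 −0.01. With single libraries left out, signs also turned in the ranges of Prox1 (−0.65 to 0.83, −0.28 to 0.29 and −0.61 to 0.75 for day 3 against 1, 7 against 3 and 7 against 1), Ccl21 (0.00 to 0.45) and Vegfc (−0.10 to 0.06) for day 3 against 1, and Lyve1 (−1.01 to 0.91), Flt4 (−0.61 to 0.76) and Mmrn1 (−1.30 to 0.63) for day 14 against 7. The cause was not tested. Ccl21 between day 7 and day 1 lost its call with no filter (adjusted p = 0.0636), with limma (0.102 and 0.112) and with the block (1.90, adjusted p = 0.091), and Prox1 between day 14 and day 7 with limma at 0.1 (1.53, adjusted p = 0.0707). The block added a call for Pdpn between day 7 and day 1 (0.71, adjusted p = 0.0224). Libraries of the same number did not deviate together (24 pairs, r from −0.42 to 0.39, median 0.04, against a median of −0.03 in 96 other pairs). This check cannot tell whether they share more than a number.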
